A study of Mus musculus with 5 samples.

Results

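Common regions are here the autosomal stretches of open chromatin that carried a peak in each of 5 ATAC-seq libraries of mouse thymocytes. ATAC-seq marks open DNA by the cuts of a transposase. The peaks of the 5 deposited lists were merged wherever they overlapped by 1 bp or more, and a region was kept when all 5 lists had a peak in it. This gave 14495 common regions among 153269 merged autosomal regions (9.46%, exact 95% interval 9.31 to 9.60). The regions were chosen by the presence of peaks in these 5 lists, so widths, scores and spacing are described and not tested.

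All 5 libraries came from C57BL/6 mice, with 1 library per group. The 4 γδ libraries were sorted CD24+ γδ T thymocytes of TCRbeta KO mice that carried ECFP knocked into 1 Sox13 allele (Sox13 ECFP KI/+), so CFP reports that gene. Cells with high CFP are called SOX13hi and cells with low or no CFP SOX13lo, and 40000 cells were sorted per γδ library. Both fractions were also taken from mice with an added Sox13 transgene (Sox13tg+), whose promoter is not given in the sources used here. Double-positive (DP) thymocytes came from wild type mice, so the γδ and DP libraries differ in genotype as well as in cell type. How many animals were pooled is not given in the sources used here. The labels give the same index for the transgenic SOX13hi and DP libraries. The peak names inside the SOX13lo list read SOX13hi, and the sample label was followed. The lists held 32167 (transgenic SOX13lo) to 110707 (DP) autosomal peaks, and the read depth is unknown.

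DNA wrapped on nucleosomes is largely closed to the transposase, and promoters, enhancers and insulators that bind proteins are open. Sites open in many cell types are in general rich in promoters of broadly expressed genes and in sites of the insulator protein CTCF, whereas enhancers differ more between cell types. DP thymocytes, with both CD4 and CD8, lie on the path to αβ T cells, and γδ T cells branch off earlier. SOX13 is a transcription factor of the SOX family linked to γδ T cells. Which common regions are promoters, enhancers or insulators was not analysed here.

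The common regions were wide compared with regions found in fewer libraries. Their median width was 356 bp (order-statistic 95% interval 351 to 361), the quartiles were 235 and 575 bp, and the range was 32 to 5886 bp. Regions with a peak in exactly 4 libraries had a median of 207.5 bp, those in 3 of 147 bp, those in 2 of 98 bp and those in a single library of 28 bp. Merging more peaks widens a region, so this order follows in part from the way regions are built. The common regions covered 6.55 Mb, or 35.7% of the length covered by all merged autosomal regions.

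**Figure D1:**
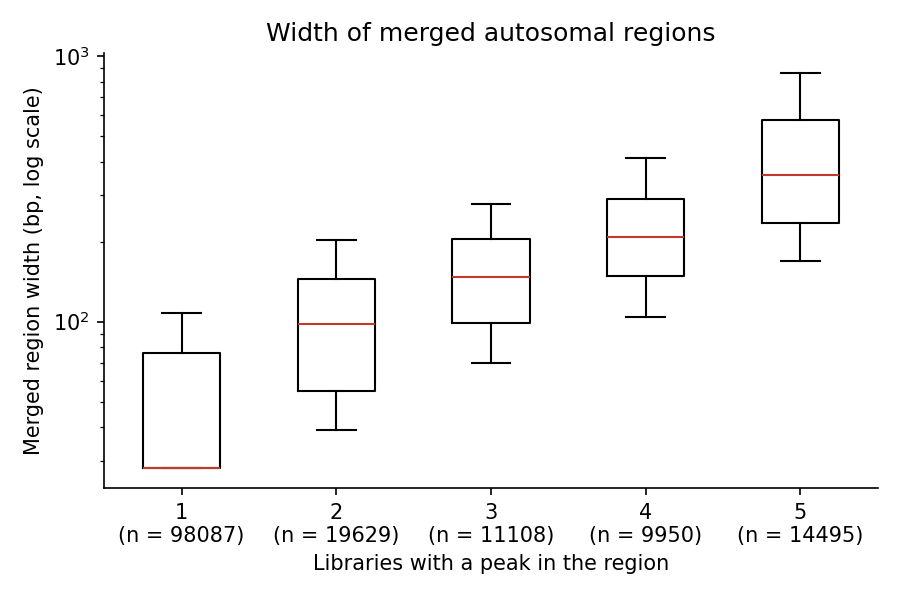
Width of merged autosomal regions (bp, log scale) by the number of libraries with a peak in the region; boxes show the quartiles with the median in red, and whiskers the 10th and 90th percentiles. The median rises from 28 bp for regions of a single library to 356 bp for the 14495 common regions.

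Common regions as a rule shared few bases across all 5 lists. In 8769 of them (60.5%) at least 1 bp was covered by a peak of every list, with a median common stretch of 28 bp where there was one. In the other 5726 (39.5%, exact interval 38.7 to 40.3) the 5 lists were linked only through partial overlaps, and no base was covered in all 5. A common stretch of 100 bp or more was found in 995 regions (6.86%). Peak width limits this number, since transgenic SOX13lo peaks covered a median of 97 bp per common region. The centres of the highest-scoring peaks lay close together, which follows in part from the merging of overlapping peaks into a region. Between pairs of libraries their median distance was 32 to 43 bp, and 88.5% to 93.2% of the centres lay within 150 bp of each other.

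The lists also cut the same region into different numbers of peaks. DP had a single peak in 86.5% of the common regions and a mean of 1.16 peaks per region. SOX13hi had a single peak in 64.8% and a mean of 1.54, and SOX13lo, transgenic SOX13hi and transgenic SOX13lo had means of 1.39, 1.55 and 1.53. In 3775 regions (26.0%) DP had 1 peak where SOX13hi had several, and the reverse held in 629 (4.34%). Each list had a single peak in 5464 common regions (37.7%).

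The common regions held most of the highest-scoring peaks of every list. The deposited score is the authors' own and is used only to rank peaks within a list. Of the 10% of autosomal peaks with the highest scores, common regions held 90.1% for SOX13hi, 91.8% for SOX13lo, 90.8% for transgenic SOX13hi, 96.5% for transgenic SOX13lo and 79.6% for DP. In the lowest 10% of each list by score these shares were 18.5%, 8.70%, 13.7%, 48.8% and 1.64%, in the same order. Many low peaks share a score, so which of them fall in the lowest 10% is in part set by their position. Over whole lists they were 42.2%, 30.7%, 36.2%, 69.0% and 15.2%. The order of the shares over whole lists is the reverse of the order of list length. With the 32167 highest-scoring autosomal peaks of every list, 11460 regions were common, and they held 92.8% of the top 10% in transgenic SOX13lo and 95.1% in DP.

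**Figure D2:**
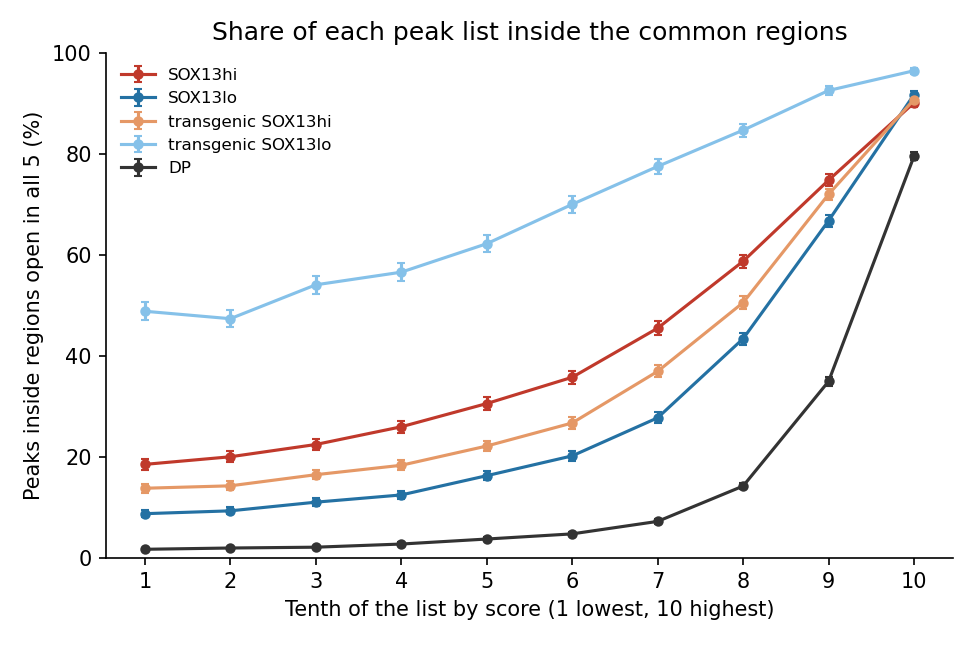
Share of autosomal peaks that lie in a common region (%, with exact 95% intervals) against score bin (10 equal bins of each list), 1 line per library. In the highest 10% the shares are 79.6% to 96.5%, and in the lowest they are 1.64% (DP) to 48.8% (transgenic SOX13lo).

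Ranked by its highest-scoring peak, the median common region stood at percentile 82.7 of all autosomal peaks for SOX13hi, 87.0 for SOX13lo, 85.6 for transgenic SOX13hi, 72.3 for transgenic SOX13lo and 92.2 for DP. Of the common regions, 9236 (63.7%) lay above the median of each of the 5 lists, 5450 (37.6%) above the 75th percentile of each and 2352 (16.2%) above the 90th. Transgenic SOX13lo, the shortest list, gave the lowest of the 5 percentiles for 8851 regions (61.1%). SOX13hi did so for 2650, transgenic SOX13hi for 1128, SOX13lo for 1095 and DP for 771.

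Some regions were only just common. In 1748 of them (12.1%) the best peak of at least 1 list had that list's lowest score, most often in transgenic SOX13lo (1193 regions). These 1193 regions stood at median percentiles of 61.8 in SOX13hi, 72.1 in SOX13lo, 68.4 in transgenic SOX13hi and 84.5 in DP. Just outside the rule, 9950 regions had a peak in exactly 4 lists, and 6970 of them (70.1%) lacked it in transgenic SOX13lo. These stood at median percentiles of 55.0, 65.2, 59.2 and 79.0 in the same 4 lists, and their median width was 212 bp against 241 bp for the 1193 regions just inside. The remaining regions of 4 lists lacked a peak in DP (1080), SOX13hi (999), transgenic SOX13hi (469) or SOX13lo (432). The DP-lacking regions had the higher median percentiles in the γδ lists, at 68.0 in SOX13hi and 74.8 in SOX13lo.

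Regions that scored highest were wider and more often shared to the base. In the top 10% by mean rank over the 5 libraries the median width was 771.5 bp and 74.1% had a base common to all lists. In the lowest 10% the median width was 189 bp and 38.3% had one. Across the 14495 regions, width and the score of the best peak had a Spearman rho of 0.45 (transgenic SOX13lo) to 0.61 (SOX13lo). These points share libraries, and width itself comes from merged peaks, so the correlations are descriptions. Regions of fewer libraries were more frequent near the strong ones: the top 10% had a mean of 4.27 of them within 1 kb, against 2.47 for the lowest 10%.

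The 5 regions with the best lowest rank were among the 5 highest-ranked common regions in each library. They were chr2:98506370-98507490, chr2:98502364-98503164, chr17:39979918-39985803, chr6:103599014-103599276 and chr9:35112769-35113159 (mm9). The first had scores of 56004 for SOX13hi, 83100 for SOX13lo, 71656 for transgenic SOX13hi, 71230 for transgenic SOX13lo and 57301 for DP, each the maximum over the common regions in its list. The median common region had scores of 40, 69, 44, 21 and 118 in these lists. Whether the 5 regions lie in repeated sequence was not analysed here. The region on chromosome 17 was also the widest, at 5886 bp with 1965 bp covered in all 5 lists. The next widest were chr10:17441420-17444420 (3001 bp) and chr1:66862310-66865021 (2712 bp), where DP had 2 peaks each and the γδ lists 4 to 11 and 5 to 7.

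Distances between neighbouring common regions had 2 peaks on a log scale, without a clear break between them. The median distance from the end of one region to the start of the next was 39.5 kb, with quartiles of 8.02 and 119 kb over 14476 distances. On a log scale the distances were most frequent at 39.8 to 63.1 kb (1572 of them), with a smaller second peak at 397 to 630 bp (326) and a low point between them at 0.999 to 1.58 kb (220). Of the distances, 739 (5.11%) were below 100 bp and another 1364 (9.42%) below 1 kb. Only 3.35% were 1 Mb or more, and the longest stretch without a common region was 11.6 Mb, on chromosome 14 at 87852130 to 99444631, where 56 regions of fewer libraries lay. With peaks joined across gaps of up to 150 bp the median distance was 45306 bp. Whether the smaller peak depends on how lists cut a region was not tested.

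Strong common regions had their nearest common region, of any rank, farther away than weak ones did. Strong regions were also wider, and merging takes in overlapping neighbours. The part of merging in these distances was not tested. Another common region lay within 1 kb of 26.3% (exact interval 25.5 to 27.0) and within 10 kb of 45.8% (45.0 to 46.6) of all common regions. Within 10 kb the share was 36.6% (34.1 to 39.1) in the top 10% by mean rank and 53.1% (50.5 to 55.7) in the lowest. The median distance to the nearest common region was 21632.5 bp in the top 10% and 7851 bp in the lowest. Regions in exactly 4 libraries, which are fewer, had another of their own kind within 10 kb in 35.3% of cases, and a common region within 10 kb in 49.4%.

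**Figure D3:**
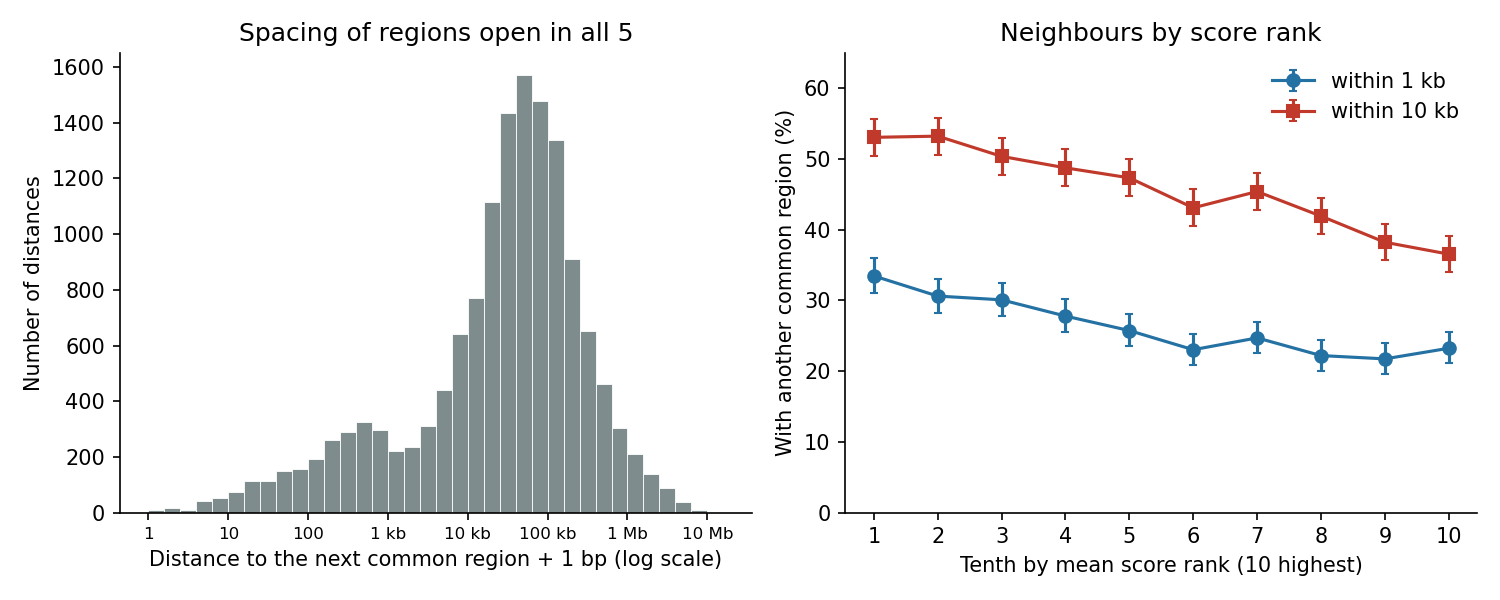
Left, number of distances between neighbouring common regions against distance (log scale), with a main peak at 39.8 to 63.1 kb and a smaller one at 397 to 630 bp. Right, share of common regions with another within 1 kb or 10 kb (%, exact 95% intervals) in 10 equal bins of mean score rank; within 10 kb it falls from 53.1% in the lowest 10% to 36.6% in the highest.

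Common regions were found on all 19 autosomes, at somewhat different densities. They numbered 4.62 per Mb on chromosome 14 to 7.53 per Mb on chromosome 19, measured over the span of each chromosome's regions. As a share of all merged regions they ranged from 7.97% (7.32 to 8.66) on chromosome 15 to 11.01% (10.4 to 11.7) on chromosome 7. Of 13215 windows of 100 kb with any region, 7091 (53.7%) held a common region. Of these, 3394 windows held 1, and 424 held 5 or more.

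The windows with the most common regions were 2 among the lowest coordinates that held regions. Whether these windows, or the highest-scoring regions, lie in repeated sequence was not analysed here. The first region of each autosome started at 2999911 (chromosome 9) to 6240661 (chromosome 14). The window at 3000001 to 3100000 held 84 on chromosome 11 and 57 on chromosome 9. On chromosome 9 the common regions were 76.0% of the 75 regions of the window, and on chromosome 11 they were 42.4% of 198. The next windows were on chromosome 6 at 128700001 (16 common of 78 regions), chromosome 8 at 87500001 (15 of 54) and chromosome 13 at 23600001 (14 of 88). At 3000001 a common region was found on 5 of the 19 autosomes, namely chromosomes 4, 9, 11, 17 and 18, with 160 in all.

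Chaining common regions across gaps of at most 5 kb gave 11427 chains, of which 9137 held a single region, 1812 held 2, 359 held 3 and 119 held 4 or more. Without the transgenic SOX13lo list 394 chains held 4 or more, and without DP 185. Without the 4 windows that were dense in every library (20 or more regions in each, 172 common regions in all), 111 chains of 4 or more were left. The 5 longest started between 2999911 and 3077784 on their chromosomes: 78 regions over 79.9 kb on chromosome 11, 43 over 23.1 kb and 14 over 9.09 kb on chromosome 9, 9 over 7.65 kb on chromosome 17 and 8 over 5.88 kb on chromosome 11. A chain on chromosome 4 at 63060427 to 63071870 also held 8 regions. In that chain the median rank percentiles among common regions were 37.7 for SOX13hi, 56.2 for SOX13lo, 36.0 for transgenic SOX13hi, 48.6 for transgenic SOX13lo and 26.6 for DP. The 78-region chain had median ranks of 35.7, 45.8, 68.3, 94.6 and 2.97 in the same order, so its regions were near the top in transgenic SOX13lo and near the bottom in DP.

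**Figure D4:**
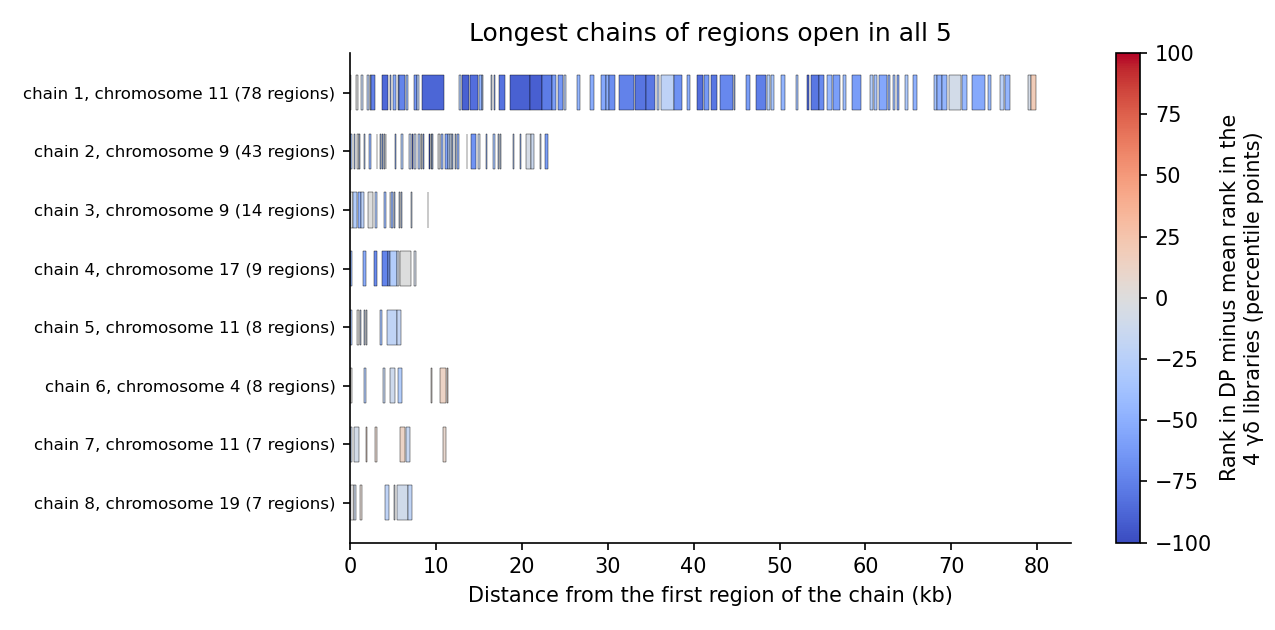
The 8 longest chains of common regions with gaps of at most 5 kb, drawn by distance from the first region (kb), each box 1 region at its width. Colour gives the rank in DP minus the mean rank in the 4 γδ libraries in percentile points; the chains on chromosomes 11 and 9 with 78 and 43 regions have medians of -49.1 and -29.7.

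For the comparison of libraries, common regions were ranked among themselves in each library by their best peak, from 0 (lowest) to 100 (highest), so that every library ranked the same 14495 regions. The order was most alike between SOX13hi and transgenic SOX13hi, with a Spearman rho of 0.86. It was 0.82 between SOX13hi and SOX13lo, 0.80 between SOX13lo and transgenic SOX13hi, and 0.74 between the transgenic fractions. SOX13lo and transgenic SOX13lo had a rho of 0.70. DP had values of 0.63 (with transgenic SOX13lo) to 0.72 (with SOX13lo). With lists of equal length the 10 values were 0.65 to 0.86. Other regions present in both lists of a pair had values of 0.18 to 0.51. These correlations are across regions that share libraries and depth, and they are descriptions.

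**Figure D5:**
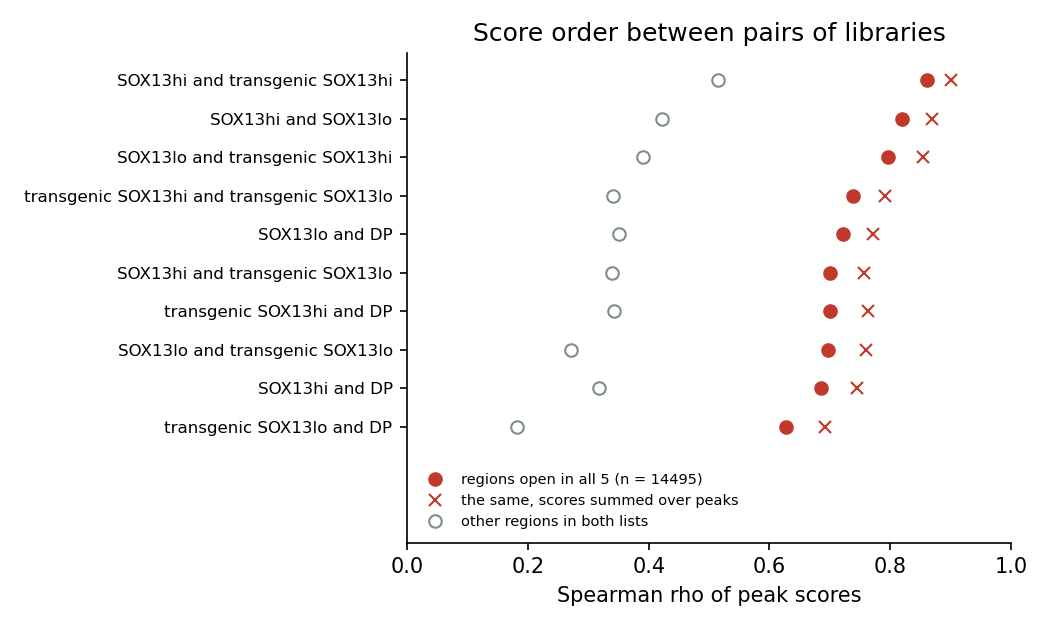
Spearman rho of peak scores for each of the 10 pairs of libraries, over the 14495 common regions (filled points), the same with the scores of a region summed over its peaks (crosses), and over other regions in both lists (open points). Common regions give 0.63 to 0.86, and other regions, which differ in number and score range, 0.18 to 0.51.

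Between SOX13hi and SOX13lo the median absolute difference in rank was 9.02 points, and 53.5% of the common regions lay within 10 points. Over all 5 comparisons 41.4% (SOX13lo with and without the transgene) to 57.5% (SOX13hi with and without it) lay within 10 points. A difference of at least 25 points was used to count regions that moved. SOX13hi ranked 952 regions (6.57%) at least that much higher than SOX13lo, and 1084 (7.48%) at least that much lower. With 1 library per group these counts cannot be set against a spread between replicates. When all 28708 regions present in both lists were ranked together, 6.02% of the common regions were at least 25 points higher in SOX13hi, against 14.2% of the other regions, where the background over all was 10.1%. For lower ranks in SOX13hi the shares were 8.58% and 12.4%, with a background of 10.5%. Ranked in this way, both shares were lower for common regions than for the other regions of this pair, without a test.

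The number of peaks moved with these differences. Of the 1084 regions ranked lower in SOX13hi, 54.2% were cut into more peaks in SOX13hi than in SOX13lo, against 23.3% of all common regions. With the scores summed over the peaks of a region, 663 regions were higher and 710 lower. The part of peak splitting in single differences was not tested.

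The 3 regions most raised in SOX13hi were chr18:11236049-11236657, chr5:67828682-67829063 and chr3:69123148-69123622. The first had rank percentiles of 85.9 for SOX13hi, 1.86 for SOX13lo, 75.3 for transgenic SOX13hi, 11.03 for transgenic SOX13lo and 4.29 for DP. The second had 83.7, 1.16, 78.1, 29.6 and 15.6, and the third 83.9, 3.56, 86.1, 25.45 and 1.02. In these 3 regions both SOX13hi libraries were thus high and the SOX13lo and DP libraries low. The most lowered, picked in the same way, were chr3:135328339-135329277, chr2:101595942-101596829 and chr2:172849049-172849537. The last of these had ranks of 5.28, 76.1, 4.54, 55.8 and 12.9, with both SOX13hi libraries below both SOX13lo libraries. In the first SOX13hi had 4 peaks and SOX13lo 1, with ranks of 15.5 and 94.3. With scores summed over peaks its difference went from -78.8 to -43.5 points, and that of chr2:101595942-101596829 from -77.0 to -46.8.

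In transgenic cells 1603 regions (11.1%) ranked at least 25 points higher in SOX13hi than in SOX13lo and 1527 (10.5%) at least that much lower. The transgenic pair shares no library with the non-transgenic one. Of the 952 regions higher in SOX13hi without the transgene, 238 (25%; 14.8% of the 1603) were also higher with it, against the background of 11.1%, and 88 (9.24%) were lower, against 10.5%. Of the 1084 lower in SOX13hi, 226 (20.8%; 14.8% of the 1527) were also lower with the transgene, and 99 (9.13%) were higher. Ranked over the 18492 regions in both transgenic lists, 12.53% of the common and 8.16% of the other regions were higher in transgenic SOX13hi (background 11.6%), and 9.16% and 20.1% were lower (background 11.5%). The region most raised in transgenic SOX13hi was chr15:41715512-41715762, with ranks of 95.3 in transgenic SOX13hi and 4.12 in transgenic SOX13lo. Its score of 8 in transgenic SOX13lo was the lowest of that list. It ranked at 96.8 in SOX13hi, 79.85 in SOX13lo and 39.4 in DP. The most lowered was chr11:3062494-3062834, in the dense window, with 11.8 and 99.6 in the transgenic fractions. Its difference of -87.8 points went to -1.06 when peaks were joined across gaps of 150 bp. Of the 172 common regions in the 4 dense windows, 49 were among the 1527 lower in transgenic SOX13hi and none among the 1603 higher. Of the 49, 36 lay on chromosome 11, 11 on chromosome 9 and 2 on chromosome 6.

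The transgenic and non-transgenic SOX13hi libraries were the closest pair, with 811 regions (5.6%) at least 25 points higher with the transgene and 717 (4.95%) lower. With summed scores these numbers were 535 and 417. Ranked over the 28876 regions in both lists, 7.63% of the common and 10.4% of the other regions were higher with the transgene (background 9%), and 5.11% and 13.0% were lower (background 9.06%). The 3 most raised regions all lay in the dense window of chromosome 11, led by chr11:3052406-3052998 with 79.2 in transgenic and 1.29 in non-transgenic SOX13hi. When the lists were joined across gaps of 150 bp, the difference of the second, chr11:3091548-3092111, went from 77.2 to -0.065 points. The most lowered was chr2:77118183-77119144, at 5.97 with and 75.25 without the transgene. For SOX13lo, 3527 regions (24.3%) moved by at least 25 points, of which 1710 (11.8%) were higher with the transgene and 1817 lower. Ranked over the 18369 regions in both lists, 9.96% of the common and 18.6% of the other regions were higher (background 11.8%), and 13.7% and 8.62% were lower (background 12.6%). The most raised was chr17:36621594-36621938. It had ranks of 93.2 and 75.7 in the transgenic SOX13lo and SOX13hi libraries, against 1.16 and 3.49 without the transgene and 25.8 in DP. Another of the 3 most raised, chr10:21862506-21862841, had 96.0 and 74.0 against 5.54 and 9.41. Both were picked for the largest SOX13lo difference, so a high transgenic SOX13lo rank beside a low non-transgenic one follows from the choice. Without the transgene their scores were 9 and 14 in SOX13lo and 8 and 11 in SOX13hi. The lowest scores of these lists were 8 and 7. In chr17:36621594-36621938 no base was covered in all 5 lists. Of the 172 regions in dense windows, 79 were higher in transgenic SOX13lo and none lower. Chromosome 11 held 56 of them, chromosome 9 held 19, and the windows of chromosomes 6 and 8 held 3 and 1.

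Against the mean of the 4 γδ libraries, DP ranked 1228 common regions (8.47%) at least 25 points higher and 1316 (9.08%) lower. Unlike the comparisons above, this sets 1 library against a mean of 4, so the counts are not alike in kind. A region in DP and all 4 γδ lists is common by definition, so there was no wider background. Of the 1228, 75.6% had more peaks on average in the γδ lists than in DP, against 53.0% of all common regions. Of the 1316, 29.3% had more peaks in DP than on average in the γδ lists, against 7.69% of all, and 28.3% had fewer. The 3 most raised in DP were chr13:114363982-114365151, chr18:40026433-40026630 and chr7:75095671-75097397. The first ranked at 96.1 in DP, 29.6 in SOX13hi, 2.59 in SOX13lo, 51.6 in transgenic SOX13hi and 4.12 in transgenic SOX13lo. In the third DP had 1 peak and the γδ lists 3 to 6, and its difference went from 66.8 to 28.0 points with summed scores. The most lowered was chr9:3024339-3024525, in the dense window of chromosome 9, and its difference of -94.6 points went to -0.79 when peaks were joined across gaps of 150 bp. Outside such windows, chr14:100858242-100858860 had ranks of 96.4, 98.9, 89.0 and 96.5 in the γδ libraries, in the order given above, and 1.55 in DP. At chr10:35877888-35878337 they were 99.25, 97.0, 99.1 and 84.65 against 1.55. These 3 DP-lowered regions were picked for the largest difference, so high γδ ranks beside a low DP rank follow from the choice. Their DP scores were 5, 7 and 7, where the lowest score of the DP list was 5. Of the 172 regions in dense windows, 103 were lower in DP and 2 higher. The lower ones were 66 of 84 regions on chromosome 11 and 35 of 57 on chromosome 9, but 1 of 16 on chromosome 6 and 1 of 15 on chromosome 8. The median differences in these 4 windows were -48.0, -28.1, 3.01 and 1.33 points.

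Differences between DP and γδ libraries were most alike in common regions less than 1 kb apart. At longer distances they were less alike and did not fall steadily with distance. Outside the dense windows, the difference of a region and that of the next one had a Spearman rho of 0.42 over 1963 pairs less than 1 kb apart. It was 0.28 at 1 to 10 kb, 0.24 at 10 to 100 kb and 0.29 at 100 kb or more. Of the close pairs, 79 had both regions moved by at least 25 points in the same direction and 2 in opposite directions. At 100 kb or more these numbers were 144 and 44. For SOX13hi against SOX13lo the rho was 0.14 under 1 kb and 0.05 at 100 kb or more.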

How the data were processed

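The authors deposited 1 peak list per library, giving chromosome, start, end and a whole-number score per peak, in mm9 coordinates (submitters' processing notes). How reads were aligned and filtered, how peaks were called and how deeply libraries were sequenced is not given in the sources used here. The deposited score served only for ranks and thresholds inside each list. Peaks on the 19 autosomes were merged by an overlap of 1 bp. A region's score in a list was that of its highest-scoring peak, and list percentiles are among all autosomal peaks of that list. Windows were 100 kb, by region centre. Regions were not assigned to genes, since the RefSeq tables given follow GRCm38, another build, and were not used here, and cell type markers were not checked. Named regions are the 5 with the best lowest rank, the 3 widest, the 5 densest windows and longest chains, and those with the largest rank differences (up to 3 per direction). The members, rules and lists were chosen with earlier results of these data known. With 1 library per group there is no test. Intervals are exact Clopper-Pearson or order-statistic 95% intervals and cover counting error only. Functions were tested on simulated lists. Alternatives changed list length, score threshold, the overlap rule, the lists required, the region score and dense windows. Software was Python 3.11.15 with scipy 1.17.1, pandas 2.3.3 and numpy 2.4.6, and figures were drawn in matplotlib 3.10.9.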

Additional observations from a re-analysis of the deposited data

Results flagged for a closer look

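The fraction difference pointed opposite ways with and without the transgene in 2 sets of common regions, each by at least 25 rank points. In 88 regions SOX13hi ranked above SOX13lo without the transgene and below it with the transgene, and in 99 regions the reverse was seen. The 88 were 9.24% of the 952 regions higher in SOX13hi without the transgene, where 10.5% of all common regions were lower with it. The 99 were 9.13% of the 1084 lower without the transgene, where 11.1% of all were higher with it. Both shares were thus no larger than over all common regions. With 1 library per group the difference was not tested.

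The sex chromosomes, left out of the common regions, also held regions present in all 5 libraries. There were 349 on chromosome X and 26 on chromosome Y.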

How the results depend on the processing

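No paired analysis was possible because each group held 1 library. Values taken per library or per pair are given here as their median. As reported there were 14495 common regions, a median width of 356 bp, a median gap of 39522 bp, 45.8% within 10 kb, 36.2% of list peaks, 90.8% of top-tenth peaks, a percentile of 85.6 and a rho of 0.71. Lists of equal length gave a median width of 397 bp, a median gap of 51297 bp, 38.4% within 10 kb, 47.2% of list peaks, 92.8% of top-tenth peaks and a percentile of 78.6. The upper 50% of each list gave 9285 common regions, a median width of 436 bp, a median gap of 67684.5 bp, 31.4% within 10 kb, 40.4% of list peaks, 92.7% of top-tenth peaks and a percentile of 82.2. Joining peaks across gaps of up to 150 bp gave a median width of 695 bp, a median gap of 45306 bp, 35.8% within 10 kb, 53.7% of list peaks, 93.1% of top-tenth peaks, a percentile of 86 and a rho of 0.72. Asking for 1 bp common to all 5 lists gave 8769 common regions, a median width of 395 bp, a median gap of 72563 bp, 32.4% within 10 kb, 23.2% of list peaks, 64.6% of top-tenth peaks, a percentile of 88.2 and a rho of 0.75. Leaving out the transgenic SOX13lo list gave a median width of 287 bp, a median gap of 23162.5 bp, 59% within 10 kb, 46.1% of list peaks, 93.6% of top-tenth peaks, a percentile of 79.6 and a rho of 0.73. Leaving out the SOX13hi list gave a median width of 321 bp, a median gap of 36289 bp, 48.2% within 10 kb, 33.9% of list peaks, a percentile of 85.1 and a rho of 0.72. Leaving out the SOX13lo list gave a median width of 308 bp, a median gap of 38103.5 bp, 47.4% within 10 kb, 36.6% of list peaks, 89.4% of top-tenth peaks, a percentile of 83.9 and a rho of 0.70. Leaving out the transgenic SOX13hi list gave a median width of 326 bp, 47.3% within 10 kb, 35.5% of list peaks, 89.8% of top-tenth peaks, a percentile of 84.1 and a rho of 0.70. Leaving out the DP list gave a median width of 289 bp, a median gap of 35218 bp, 51.3% within 10 kb, 92.5% of top-tenth peaks, a percentile of 83.5 and a rho of 0.75. The mean score over all peaks of a region gave a percentile of 82.3, and the summed score gave a rho of 0.77. Where a list was left out, its shares, percentile and pairs left the medians. Leaving out dense windows gave 14323 common regions and a rho of 0.72, and including chromosome X gave 14844 common regions. Leaving out the transgenic SOX13lo list gave 21359 common regions and any other list 14706 to 15617, within 1.5 times the 14495 reported. Chains of 4 or more numbered 53 and 304 with a narrower and a wider gap allowed, against 119. They numbered 394 without the transgenic SOX13lo list, 185 without DP, 58 with equal lists, 54 with joining across 150 bp, 34 with a common base, 31 in the upper 50% of each list and 111 to 144 under the other alternatives. Windows of 50 kb and 1 Mb with a common region numbered 8975 and 1798. Of the 30 regions named for rank differences, 8 were still common with lists of equal length, 3 in the upper 50% of each list and 9 with a common base, so the others have no value there. One of them reversed, chr11:3091548-3092111, at -0.065 points with joining across 150 bp. That setting also took chr11:3062494-3062834 from -87.8 to -1.06 and chr9:3024339-3024525 from -94.6 to -0.79. Beside the values given with the regions above, scores over all peaks made the differences of 3 regions smaller by over 1.5 times, chr11:3095675-3097171 (72.7 to 26.4), chr2:162842664-162843300 (-81.5 to -52.3) and chr1:127456803-127457360 (-80.5 to -51.4). The cause of these changes was not tested. Depth is unknown, and absence from a short list cannot be told apart from closed chromatin.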
